A study of Ailuropoda melanoleuca with 25 samples.

Results

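A set of 20 gene models is described here, of the 22924 measured in giant panda (Ailuropoda melanoleuca) cells during reprogramming. These 20 models were high at stage I D8, low at stage I D24 and high again at stage II D8. They were chosen by the mean level of each sample group in CPM, the estimated count of a model as a share of the library total on the usual per-library scale. A model had to reach 10 CPM or more at both stage I D8 and stage II D8, and its stage I D24 mean had to be at most 0.25 times each of these. Of all models, 6194 reached 10 CPM in both of the outer groups, and these are used below as a second background. All 20 passed the count filter over all libraries, though some had 0 counts in single groups.

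Reprogramming turns a differentiated cell into a pluripotent one by supplying pluripotency factors. In this study they came from episomal vectors, which do not integrate into the chromosomes. Fibroblasts give up their mesenchymal programme along this route and take on epithelial features, and signals from the transforming growth factor beta (TGF-beta) family can hold back that change. A83-01 blocks the kinase activity of TGF-beta type I receptors. CHIR99021 inhibits glycogen synthase kinase and thereby stabilises beta-catenin, the effector of canonical Wnt signalling.

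The series holds 25 RNA libraries in 12 groups, all with primary fibroblast cells as their labelled source. LB PF and XR PF are fibroblasts, and LB GPiPSC and XR GPiPSC are induced pluripotent stem cells. Stage I D8, stage I D24 and stage II D8 are named by stage and day of reprogramming, control D16 and A83-01 D16 by treatment and day, and the 3 BACL groups are BACL control, BACL-CHIR99021 and BACL LB GPiPSC. LB GPiPSC has 3 libraries and every other group has 2. What LB, XR, BACL and the stages mean is not spelled out in the labels, and only the PF and GPiPSC groups carry LB or XR. Neither reprogramming factors nor doses are named. Whether replicates came from separate cultures is not stated either, so every p-value here rests on the spread between libraries that may be technical copies. Totals ran from 8627983 to 14890260 estimated counts. The lowest correlation between replicates of a group, in log2 CPM across models, was 0.944 (LB PF), and stage I D24 was next lowest at 0.950. The files pair no model with a gene name, and 0 of the 22924 identifiers occurred in the RefSeq table of assembly ASM200744v3. Members are therefore given by identifier, their roles are not stated, and neither pathway lists nor markers of fibroblasts or pluripotent cells could be read. In bulk RNA, fewer cells of a type and less RNA per cell cannot be told apart.

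The values that chose the members are given first, as a description without a test. The deepest dip belonged to evm.model.HIC_ASM_4.615, with 2094 and 2105 CPM in the 2 stage I D8 libraries, 12 and 9.15 CPM at stage I D24 and 1173 and 1322 CPM at stage II D8. Its stage I D24 mean was 199 times below stage I D8 and 118 times below stage II D8. The model evm.model.HIC_ASM_7.203 stood at 3710.4 and 3492 CPM, then 38 and 21.5 CPM, then 2582 and 2788 CPM, with ratios of 121 and 90.3. These 2 models also had the highest CPM of the 20 in the outer groups. Per effective length, in the deposited TPM (a measure of transcript level corrected for length), the lower of the outer levels was 2657 TPM for evm.model.HIC_ASM_7.203, 821 for evm.model.HIC_ASM_13.2106 and 466 for evm.model.HIC_ASM_4.615, the 3 highest of the 20. Another deep dip, that of evm.model.HIC_ASM_0.793, was singled out after its values were seen. It had 12.8 and 23.7 CPM at stage I D8, 0 and 0.525 CPM at stage I D24, where only 1 library had counts, and 35.8 and 25.7 CPM at stage II D8.

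Across the 20 models the ratio of the lower outer mean to the stage I D24 mean ran from 4.01 to 118, with a median of 7.30. In all 20, both stage I D24 libraries lay below all 4 libraries of the outer groups, and in 14 every stage I D24 library was at most 0.25 times every outer library. By mean, stage II D8 stood below stage I D8 in 15 of the 20, with a median ratio of 0.713. This difference was not tested, and no background share is given for the count. In the second background the median level was 46.0 CPM at stage I D8 and 53.9 CPM at stage II D8. The 15 include evm.model.HIC_ASM_15.748, whose libraries overlapped, at 30.2 and 43.0 CPM at stage I D8 and 39.3 and 33.1 CPM at stage II D8. The extremes of the ratio were evm.model.HIC_ASM_12.175, at 293 CPM at stage I D8 and 77.9 CPM at stage II D8, and evm.model.HIC_ASM_12.1074, at 31 and 172 CPM. The second was thus higher at stage II D8 than at stage I D8.

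Every member had counts in at least 1 stage I D24 library. At stage I D24, 10 of the 20 still had a mean of 10 CPM or more, where 98.8% of the second background did. The highest there was evm.model.HIC_ASM_13.509, at 429 and 393 CPM at stage I D8, 94.3 and 97.2 CPM at stage I D24 and 429.9 and 452 CPM at stage II D8. Next were evm.model.HIC_ASM_6.1102, at 608 and 744 CPM, then 42.4 and 96.9 CPM, then 453 and 448 CPM in the same order, and evm.model.HIC_ASM_6.1003, at 477 and 979 CPM, then 22.2 and 99.3 CPM, then 388 and 184 CPM. The last had wide replicate differences in all 3 groups. Other models lay much lower. The models evm.model.HIC_ASM_8.1376, evm.model.HIC_ASM_15.86, evm.model.HIC_ASM_7.1457 and evm.model.ORI_1550.3 had means of 20.2, 16.3, 15.4 and 18.5 CPM at stage I D8, and all 4 were between 10.4 and 14.6 CPM at stage II D8, close to the 10 CPM that the rule asks for. The models evm.model.HIC_ASM_13.2106 and evm.model.HIC_ASM_3.931 were higher at stage II D8, at 536 and 299 CPM, than at stage I D8, at 403 and 125 CPM.

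**Figure D1:**
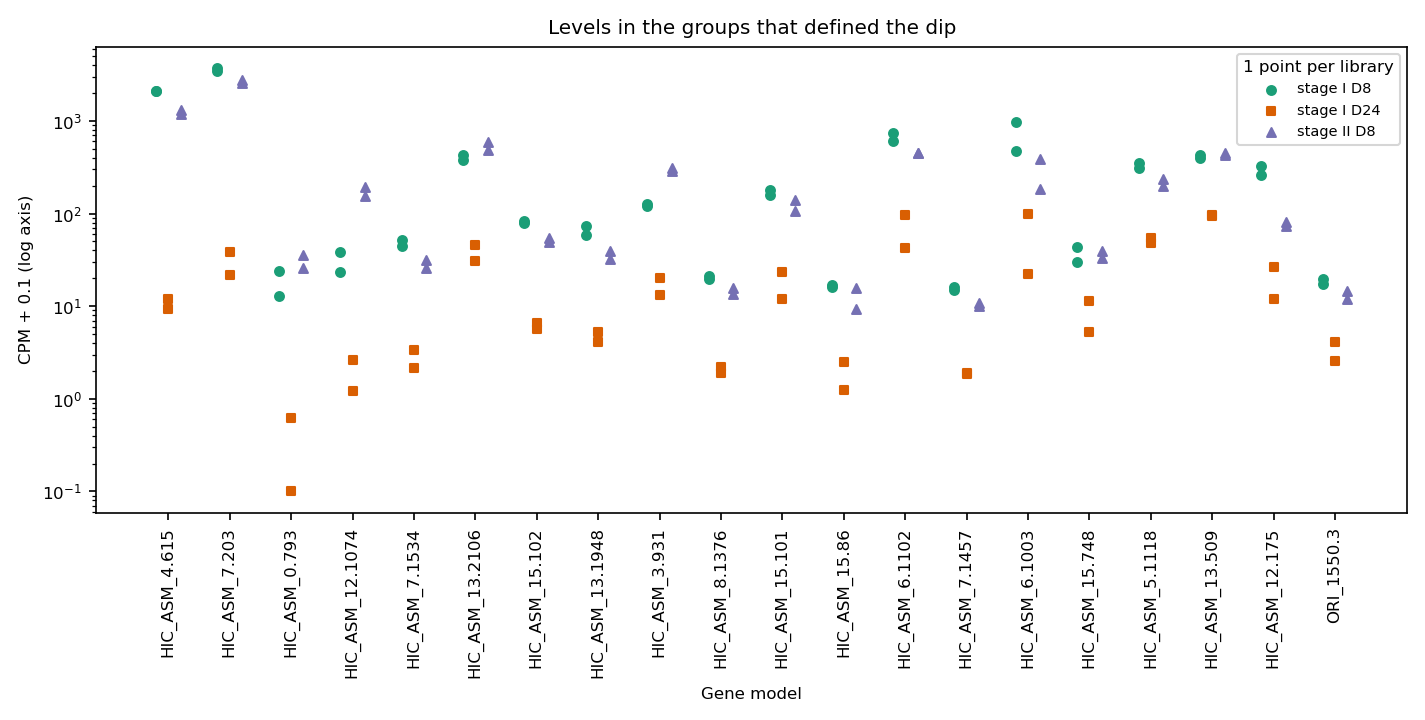
Levels of the 20 gene models in the groups that chose them, in CPM + 0.1 on a log axis, with 1 point per library (circles stage I D8, squares stage I D24, triangles stage II D8) and identifiers without their shared prefix. Models are ordered by the depth of the dip, from a ratio of 118 on the left to 4.01 on the right, and in each the 2 squares lie below the circles and triangles.

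Models lay close to the limit of the rule on both sides. Just inside it, evm.model.ORI_1550.3 had a stage I D24 mean of 3.26 CPM, or 25% of its stage II D8 mean, and evm.model.HIC_ASM_12.175 had 19.1 CPM, or 24.6%. Just outside, evm.model.HIC_ASM_3.685 and evm.model.HIC_ASM_8.242 stood at 25.6% and 25.8%, with 1037 and 404 CPM at stage I D8. The number of models past the limit depended on scaling. TMM factors, which correct library sizes for composition, were 0.714 and 1.05 at stage I D24 and 0.622 and 0.695 at stage I D8. On TMM-scaled CPM 36 models met the rule, the 20 among them, and without stage I D24 replicate 2 on the unscaled CPM 31 did, again with the 20 among them. Among the models with counts in both stage I D24 libraries, these differed by the largest ratios in evm.model.HIC_ASM_6.1003 (22.2 and 99.3 CPM), evm.model.HIC_ASM_12.1074 (1.13 and 2.55 CPM) and evm.model.HIC_ASM_6.1102 (42.4 and 96.9 CPM), and replicate 2 was the higher in 12 of the 20.

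The libraries that the rule did not use allow tests. At day 16, A83-01 was compared with the control to see what blocking the TGF-beta receptors changed. With A83-01, 13 of the 20 models fell and 0 rose (edgeR quasi-likelihood test, Benjamini-Hochberg adjusted p under 0.05 over all models tested). Of the 17225 models tested, 2.04% fell and 4.19% rose, and of the 6194 models at 10 CPM or more in the outer groups 2.45% fell and 1.42% rose. All 20 fitted log2 fold changes were below 0, with a median of -2.73 against 0.04 over all models tested. At an unadjusted p under 0.05, 18 were lower and 0 higher, and DESeq2 called 15 lower and 0 higher. The matching shares of all models tested are not given for these call rules. In 19 of the 20, both A83-01 libraries lay below both controls, as in 17.6% of all models tested.

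The model evm.model.ORI_1550.3 had 20.5 and 18.2 CPM in the control D16 libraries and 0.698 and 0.447 CPM with A83-01, a log2 fold change of -5.18 ± 0.72 (SE; edgeR adjusted p = 0.000189). The model evm.model.HIC_ASM_4.615 went from 199 and 176 to 7.62 and 4.26 CPM (-5.14 ± 0.78, edgeR adjusted p = 0.000448). The groups were far apart in both, and the A83-01 levels of evm.model.HIC_ASM_4.615 lay below even its stage I D24 levels of 12 and 9.15 CPM. Next came evm.model.HIC_ASM_15.102 at -4.56 ± 0.66, evm.model.HIC_ASM_7.203 at -4.55 ± 0.45, with 243 and 204 CPM against 12.6 and 8.67 CPM, and evm.model.HIC_ASM_15.101 at -4.44 ± 0.84. The other 8 that fell had log2 fold changes from -3.39 (evm.model.HIC_ASM_6.1003) to -1.51 (evm.model.HIC_ASM_12.1074). Between these lay evm.model.HIC_ASM_0.793, evm.model.HIC_ASM_15.748, evm.model.HIC_ASM_13.2106, evm.model.HIC_ASM_7.1534, evm.model.HIC_ASM_6.1102 and evm.model.HIC_ASM_12.175. The 7 that did not pass included evm.model.HIC_ASM_13.509, at 36.5 and 29.8 CPM in the control and 34.4 and 22.5 with A83-01, which was the model whose groups overlapped. In evm.model.HIC_ASM_7.1457 the values were 2.70 and 4.28 CPM in the control and 2.51 and 2.55 with A83-01. Also among them were evm.model.HIC_ASM_5.1118 (-0.68 ± 0.32), evm.model.HIC_ASM_13.1948 (-1.15 ± 0.54) and evm.model.HIC_ASM_3.931 (-1.17 ± 0.40), and the low evm.model.HIC_ASM_8.1376 and evm.model.HIC_ASM_15.86, which had at most 1.78 CPM in any day 16 library. By library, evm.model.HIC_ASM_6.1003 had 499 and 448 CPM in the control and 62 and 39.2 with A83-01, evm.model.HIC_ASM_6.1102 had 129 and 127 against 33.7 and 20.7 CPM, and evm.model.HIC_ASM_0.793 had 17.5 and 22.2 against 3.85 and 1.55 CPM. In each, A83-01 replicate 1 was the higher of the treated libraries and still below both controls. Without A83-01 replicate 1 the count that fell was 8, and without replicate 2 it was 6, with the remaining library assumed to vary like the other groups.

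**Figure D2:**
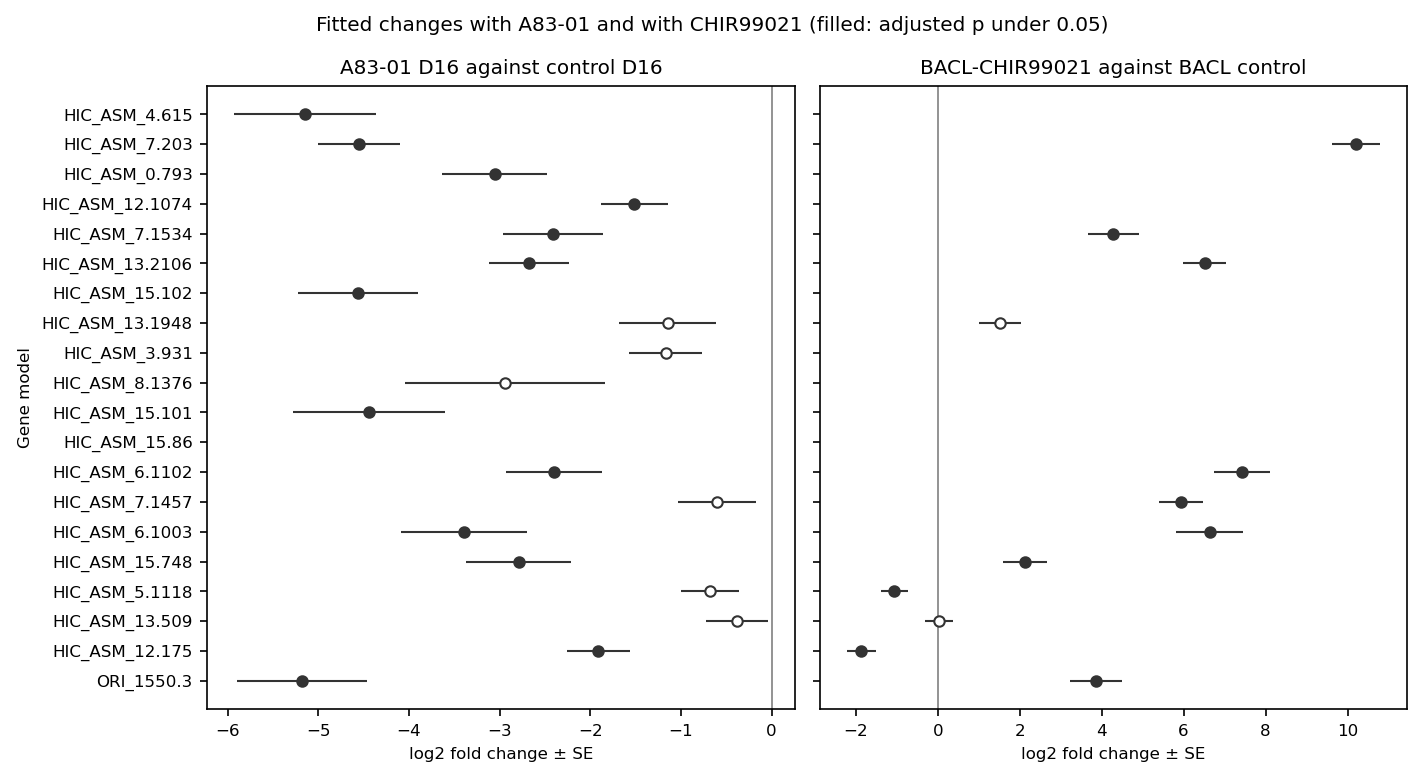
Fitted log2 fold changes with their standard errors for A83-01 D16 against control D16 (left, 19 models) and BACL-CHIR99021 against BACL control (right, 12 models), with filled points for an adjusted p under 0.05. Models with 3 counts or fewer in either group are not drawn. With A83-01 every point lies below 0, and with CHIR99021 evm.model.HIC_ASM_7.203 lies farthest to the right at 10.21 while evm.model.HIC_ASM_5.1118 and evm.model.HIC_ASM_12.175 lie below 0.

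CHIR99021 was compared with the BACL control, in libraries that share nothing with the day 16 comparison. With CHIR99021, 11 of the 20 models rose and 2 fell, against 11.7% and 4.43% of all models tested, and against 11% and 5.44% of the models at 10 CPM or more in the outer groups. The median log2 fold change was 4.09, or 2.99 with the 2 models at 0 in the BACL control set to their bound of 3 counts over the group, against 0.00 over all models tested. The model evm.model.HIC_ASM_7.203 rose from 1.45 and 1.24 CPM to 1778 and 1760.2 CPM, a log2 fold change of 10.21 ± 0.59 (SE; edgeR adjusted p = 2.97e-09). Its stage II D8 mean was 2685 CPM. The model evm.model.HIC_ASM_6.1102 rose from 1.82 and 2.86 to 445 and 440.5 CPM (7.43 ± 0.68, edgeR adjusted p = 5.13e-07). Replicates lay close together in both groups. Over models, squared replicate differences relative to counting error stood at 1.59 in BACL control and 1.52 in BACL-CHIR99021. In the 12 groups they ran from 1.20 (BACL LB GPiPSC) to 112 (XR PF), with 2.25 in control D16 and 27.9 in A83-01 D16. Whether the close replicates are technical copies was not tested, so their closeness adds no weight to these calls. Both CHIR99021 libraries lay above both BACL control libraries in 15 of the 20, as in 47.1% of all models tested.

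The model evm.model.HIC_ASM_4.615 was called too, with 0 and 0.0732 CPM in the BACL control, which is 1 count in all, and 557 and 519 CPM with CHIR99021, so no fold is given. Likewise evm.model.HIC_ASM_3.931 had 0 and 0.146 against 78.5 and 75.4 CPM, and evm.model.HIC_ASM_12.1074 had 0.0727 and 0.0732 against 1.63 and 1.51 CPM. The last of these stayed under its stage I D24 mean of 1.84 CPM. Of the other 6 that rose, evm.model.HIC_ASM_6.1003 had 5.02 and 4.98 CPM in the BACL control and 548 and 542 with CHIR99021, and evm.model.HIC_ASM_13.2106 had 3.85 and 1.98 against 295 and 292 CPM. These 6 were evm.model.HIC_ASM_6.1003, evm.model.HIC_ASM_13.2106, evm.model.HIC_ASM_7.1457, evm.model.HIC_ASM_7.1534, evm.model.ORI_1550.3 and evm.model.HIC_ASM_15.748, with log2 fold changes from 6.63 to 2.13 in that order. In 2 models the direction was the opposite. The model evm.model.HIC_ASM_12.175 fell from 34.2 and 34.3 to 10.1 and 10.5 CPM (-1.87 ± 0.36, edgeR adjusted p = 0.00106), and evm.model.HIC_ASM_5.1118 from 117 and 117 to 61.5 and 61.8 CPM (-1.06 ± 0.32, edgeR adjusted p = 0.0311). The call for evm.model.HIC_ASM_5.1118 was lost when any 1 of these 4 libraries was left out, and on the TPM scale. Of the 7 that did not pass, evm.model.HIC_ASM_13.509 was at 252 and 259 CPM in the BACL control and 279.6 and 293 with CHIR99021, evm.model.HIC_ASM_13.1948 at 22.1 and 17.4 against 61.2 and 63.4 CPM (edgeR adjusted p = 0.0512), and evm.model.HIC_ASM_8.1376 and evm.model.HIC_ASM_0.793 had 0 counts in the BACL control and at most 0.488 and 0.325 CPM with CHIR99021. The models evm.model.HIC_ASM_15.86, evm.model.HIC_ASM_15.101 and evm.model.HIC_ASM_15.102 had 0 counts in all 4.

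The calls with the 2 compounds overlapped. Of the 13 models that fell with A83-01, 9 rose with CHIR99021, 1 (evm.model.HIC_ASM_12.175) fell with it and 3 did not pass. Among the 3, evm.model.HIC_ASM_15.101 and evm.model.HIC_ASM_15.102 had 0 counts in both BACL groups compared and could not be called. Fewer models were called with A83-01 when either A83-01 library was left out, as given above. The 9 are 45% of the 20, 69.2% of those that fell with A83-01 and 81.8% of those that rose with CHIR99021. Over all models tested, 134 fell with A83-01 and rose with CHIR99021, which is 0.778% of the 17225, 38.2% of the 351 that fell with A83-01 and 6.67% of the 2010 that rose with CHIR99021. Among the 6194 models at 10 CPM or more in the outer groups 81 did both, which is 1.31% of them, 53.3% of the 152 that fell with A83-01 and 11.9% of the 679 that rose with CHIR99021. Doses are not in the labels and the groups differ in culture, so the sizes of the 2 effects are not compared.

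Day 16 lies between day 8 and day 24 of the labels, but control D16 is labelled with no stage. There, 12 of the 20 models had a mean between those of stage I D8 and stage I D24, 3 stood above stage I D8 and 5 below stage I D24. The model evm.model.HIC_ASM_4.615 was at 187 ± 16.7 CPM (SD, n = 2) and evm.model.HIC_ASM_7.203 at 223 ± 27.9 CPM, both well under stage I D8 and well over stage I D24. The 3 above stage I D8 were evm.model.HIC_ASM_12.175 at 368 ± 18.6 CPM, evm.model.HIC_ASM_0.793 at 19.9 ± 3.35 CPM and evm.model.ORI_1550.3 at 19.3 ± 1.61 CPM. A mean of at most 0.25 times the lower outer mean was found for 10 of the 20 in control D16 and for 18 in A83-01 D16, against 0.791% and 1.03% of the second background. It was also found for 11 in LB PF, 2 in XR PF, 15 in LB GPiPSC and 16 in XR GPiPSC. In the second background these shares were 2.37%, 1.19%, 5.59% and 6.28% in the same order. These counts share the stage values with the rule and are a description.

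Control D16 was tested against the mean of LB PF and XR PF. In it 12 of the 20 models were lower than this mean and 4 higher, against 12.3% and 17.1% of all models tested and 17.3% and 11.1% of those at 10 CPM or more in the outer groups. The model evm.model.HIC_ASM_12.1074 had LB PF values of 56.4 and 27.1 CPM, XR PF values of 262 and 184 CPM and 6.0 and 6.84 in control D16, a log2 fold change of -3.94 ± 0.35 (SE; edgeR adjusted p = 1e-07). The model evm.model.HIC_ASM_13.2106 fell likewise, from LB PF values of 119.7 and 79.2 CPM and XR PF values of 586 and 981 CPM to 35.9 and 32.2 CPM (-3.10 ± 0.41, edgeR adjusted p = 1.02e-05). Higher at day 16 were evm.model.ORI_1550.3, where LB PF had 3.19 and 0 CPM, XR PF 6.84 and 3.35 CPM and control D16 20.5 and 18.2 CPM (2.69 ± 0.48, edgeR adjusted p = 0.000246), and evm.model.HIC_ASM_12.175, with 179 and 57.5 CPM, 319 and 208 CPM and 355 and 381 CPM in the same order (1.03 ± 0.28, edgeR adjusted p = 0.00890). The fibroblast groups differed from each other in these models. XR PF stood above LB PF by mean in 19 of the 20, against 37% of all models tested and 49.5% of the second background. Both XR PF libraries lay above both LB PF libraries in 17, against 14.3% and 18%. This difference was not tested. The exception was evm.model.HIC_ASM_13.509. The reference is a mean on the log scale of these unlike groups, so a call against it need not hold against each. Both control D16 libraries lay below all 4 PF libraries in 7 of the 20 and above all 4 in 3, as in 14.3% and 22.6% of all models tested. The others called higher were evm.model.HIC_ASM_7.1457 and evm.model.HIC_ASM_0.793. In evm.model.HIC_ASM_0.793 control D16 had 17.5 and 22.2 CPM, above LB PF at 0.245 and 0.580 CPM but below XR PF at 142 and 53.2 CPM, and the call was lost without LB PF replicate 1, without either control D16 library and on log2(TPM + 1). Of those called lower, evm.model.HIC_ASM_15.101, evm.model.HIC_ASM_15.102 and evm.model.HIC_ASM_5.1118 had control D16 means of 7.01, 6.80 and 124 CPM, below XR PF but slightly above their LB PF means of 5.82, 6.43 and 119 CPM. The models evm.model.HIC_ASM_4.615, evm.model.HIC_ASM_6.1003, evm.model.HIC_ASM_15.748 and evm.model.HIC_ASM_13.509 did not pass. The count of 16 calls fell to 10 without control D16 replicate 1 and to 8 without replicate 2.

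GPiPSC were compared with the fibroblasts of the same label. In XR, 17 of the 20 models were lower in GPiPSC and 2 higher, against 28.9% and 27% of all models tested and 39.2% and 16.1% of those at 10 CPM or more in the outer groups. In LB, 14 were lower and 3 higher, against 28.9% and 28.5% of all models tested and 32.5% and 25.8% of the second background. The median log2 fold change of the 20 was -6.46 in XR, or -6.33 with models at 0 set to their bound, and -4.21 in LB, against 0.00 over all models tested in both. By mean, 15 of the 20 stood below their stage I D24 level in LB GPiPSC, and 15 did in XR GPiPSC. These counts share the stage I D24 values with the rule and are a description without a background share. The model evm.model.HIC_ASM_3.931 was at 589 and 911 CPM in XR PF and 1.44 and 1.37 in XR GPiPSC (-9.73 ± 0.58 log2 fold change and SE, edgeR adjusted p = 1.81e-10), and at 85 and 46.7 CPM in LB PF and 0.689, 0.484 and 0.0849 in LB GPiPSC (-7.68 ± 0.49, edgeR adjusted p = 2.41e-10). In XR evm.model.HIC_ASM_4.615 was at 1077 and 1572 CPM in PF and 1.52 and 1.14 in GPiPSC (-10.63 ± 1.00, edgeR adjusted p = 5.18e-08), and in LB evm.model.HIC_ASM_7.203 at 687 and 474 CPM in PF and 6.38, 2.58 and 4.42 in GPiPSC (-7.46 ± 0.43, edgeR adjusted p = 6.06e-11). In all of these the PF and GPiPSC libraries lay far apart.

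A few models went the other way. The model evm.model.HIC_ASM_13.509 rose from 21.9 and 23.8 to 216 and 256 CPM in XR (2.71 ± 0.36, edgeR adjusted p = 3.94e-06) and from 75.7 and 23.9 to 542, 437 and 409.7 CPM in LB (2.79 ± 0.35, edgeR adjusted p = 1.32e-06). The model evm.model.HIC_ASM_7.1457 rose from 0.211 and 0.470 to 9.79 and 10.8 CPM in XR (4.22 ± 0.52, edgeR adjusted p = 1.64e-06) and, called as well, was at 0.326 and 0 CPM in LB PF and 10.9, 7.35 and 4.84 in LB GPiPSC. The third in LB was evm.model.ORI_1550.3, at 3.19 and 0 CPM in PF and 13.7, 10.2 and 9.75 in GPiPSC (2.30 ± 0.59, edgeR adjusted p = 0.00276). This call was lost in the fit of only the libraries compared. The log2 fold change was 1.42, still called, without LB PF replicate 2, and without replicate 1 LB PF is at 0 counts and no fold is given. The models that did not pass were evm.model.HIC_ASM_15.748, evm.model.HIC_ASM_5.1118 and evm.model.HIC_ASM_0.793 in LB and evm.model.ORI_1550.3 in XR. Some had no counts in GPiPSC. The neighbours evm.model.HIC_ASM_15.101 and evm.model.HIC_ASM_15.102 had 0 counts in all 5 LB and XR GPiPSC libraries, which puts them at least 663-fold and 526-fold lower than in XR PF and at least 69.4-fold and 76.7-fold lower than in LB PF, with a floor of 3 counts over the group. The same holds for evm.model.HIC_ASM_15.86, at least 89.3-fold lower than in XR PF and 27.5-fold lower than in LB PF. In XR GPiPSC evm.model.HIC_ASM_0.793 and evm.model.HIC_ASM_8.1376 had 0 counts too, and were at least 833-fold and 111-fold lower than in XR PF. A test of the LB change minus the XR change, added after the data were seen, called 6 of the 20, each with the higher change in LB, against 5.56% of all models tested and 9.14% of those at 10 CPM or more in the outer groups. This test could not call evm.model.HIC_ASM_15.86, evm.model.HIC_ASM_15.101 and evm.model.HIC_ASM_15.102, which had 0 counts in both the LB and the XR GPiPSC groups. The count of calls was 1 in a fit of only the PF and GPiPSC libraries compared. It was 3 without LB GPiPSC replicate 1 or without either XR GPiPSC library, 14 without LB PF replicate 1 and 10 without XR PF replicate 1.

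By level, 5 of the 20 reached 10 CPM in both PF groups and in both the LB and the XR GPiPSC groups, 7 in both PF groups but not in both GPiPSC groups, and 8 in both groups of neither pair. Among the 6194 models at 10 CPM or more in the outer groups these shares were 86.6%, 7.07% and 2.21%. The 5 were evm.model.HIC_ASM_12.175, evm.model.HIC_ASM_5.1118, evm.model.HIC_ASM_6.1102, evm.model.HIC_ASM_6.1003 and evm.model.HIC_ASM_13.509. Among the 8 were the 4 members on scaffold HIC_ASM_15.

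In BACL LB GPiPSC 3 of the 20 were lower than in LB GPiPSC and 0 higher (edgeR), against 7.7% and 1.79% of all models tested and 6.04% and 2.18% of those at 10 CPM or more in the outer groups. At an unadjusted p under 0.05, 8 were lower and 0 higher, and DESeq2 called 6 lower and 0 higher. Shares of all models tested under these rules are not given, so these counts have no background here. The 3 called by edgeR were evm.model.HIC_ASM_7.1457, evm.model.HIC_ASM_6.1102 and evm.model.HIC_ASM_13.1948. The first went from 10.9, 7.35 and 4.84 to 0.154 and 0.167 CPM (-5.39 ± 0.58, edgeR adjusted p = 1.03e-05). The second went from 10.3, 9.85 and 18.9 to 1.85 and 2.84 CPM (-2.38 ± 0.56, edgeR adjusted p = 0.00957). The third went from 27.7, 23.8 and 8.92 to 4.63 and 4.10 CPM (-2.12 ± 0.53, edgeR adjusted p = 0.0140). In evm.model.HIC_ASM_15.86, evm.model.HIC_ASM_15.101 and evm.model.HIC_ASM_15.102 both groups had 0 counts, so no change could be called. With either BACL LB GPiPSC library left out 1 was called, and without LB GPiPSC replicate 2 there were 5.

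**Figure D3:**
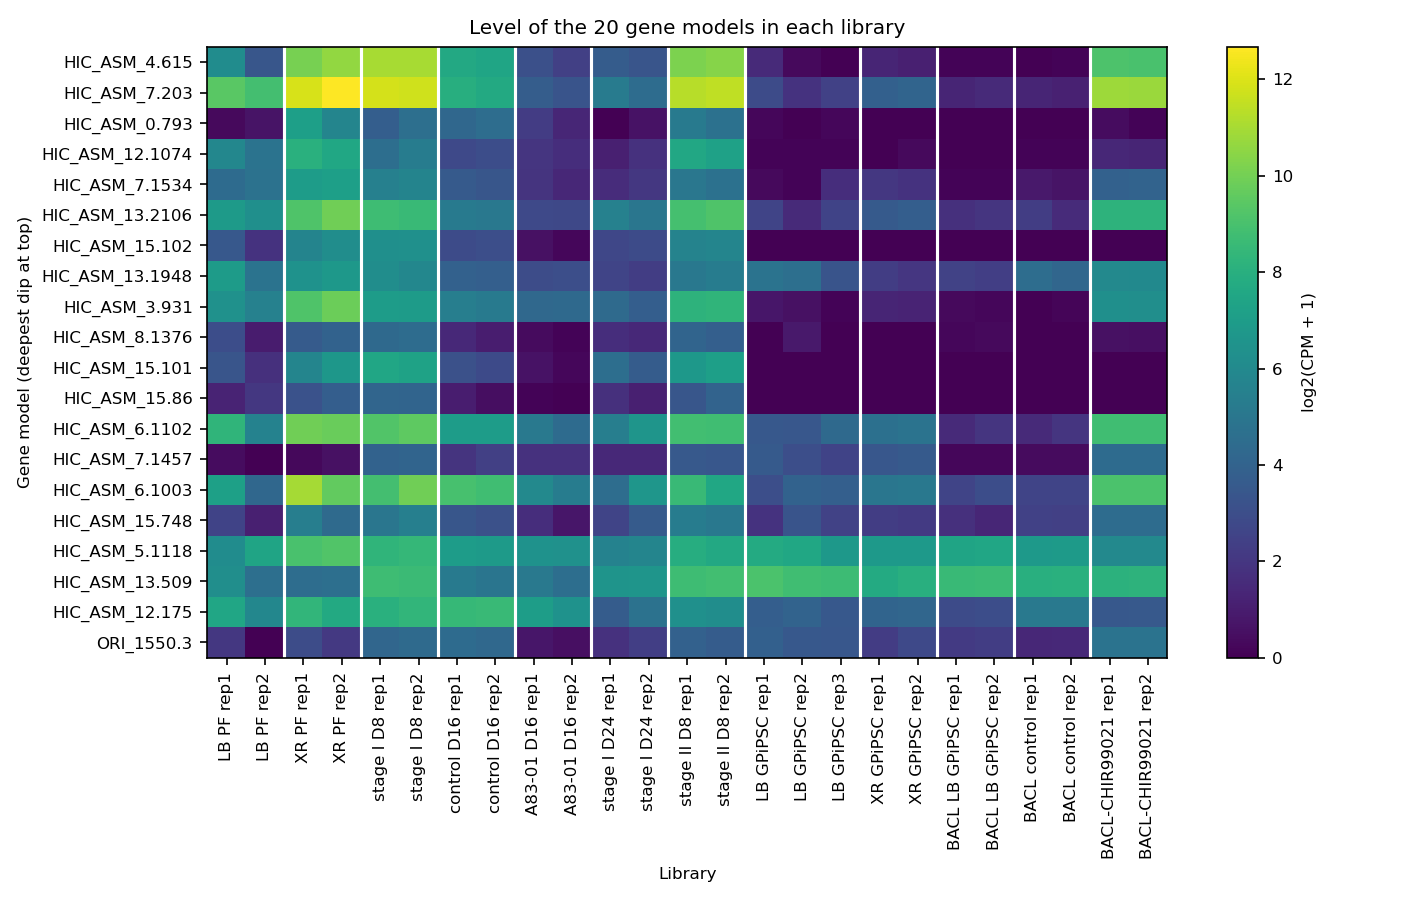
Level of the 20 gene models (rows, deepest dip at the top, identifiers without their shared prefix) in each of the 25 libraries (columns, white lines between groups), as log2(CPM + 1). Most rows are bright in XR PF, stage I D8 and stage II D8 and dark in A83-01 D16 and the GPiPSC groups, 11 rows are brighter in BACL-CHIR99021 than in BACL control by the test, and evm.model.HIC_ASM_13.509 is bright in the GPiPSC and BACL groups.

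Together the 20 models took between 0.895% and 0.941% of all counts in the stage I D8 libraries, between 0.0385% and 0.0496% at stage I D24 and between 0.665% and 0.688% at stage II D8. In the fibroblasts, which the rule did not use, this share was 1.08% to 1.32% in XR PF and 0.101% to 0.199% in LB PF. At day 16 it was 0.165% to 0.177% in the control and 0.0310% to 0.0414% with A83-01. It was 0.0445% to 0.0446% in BACL control and 0.414% to 0.420% in BACL-CHIR99021. The GPiPSC groups had 0.0601% to 0.0860% (LB), 0.0453% to 0.0502% (XR) and 0.0583% to 0.0600% (BACL LB). The models evm.model.HIC_ASM_7.203 and evm.model.HIC_ASM_4.615 make up most of the sum at stage I D8. Over the means of the 9 groups that the rule did not use, on log2(CPM + 1), 15 of the 20 followed the mean of the other 19 with a Pearson correlation of 0.744 to 0.978. The remaining 5 were evm.model.HIC_ASM_12.175 (0.603), evm.model.HIC_ASM_5.1118 (0.412), evm.model.ORI_1550.3 (0.304), evm.model.HIC_ASM_7.1457 (-0.0635) and evm.model.HIC_ASM_13.509 (-0.685). The groups differ in culture and library composition together, so these are descriptions of 9 points.

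**Figure D4:**
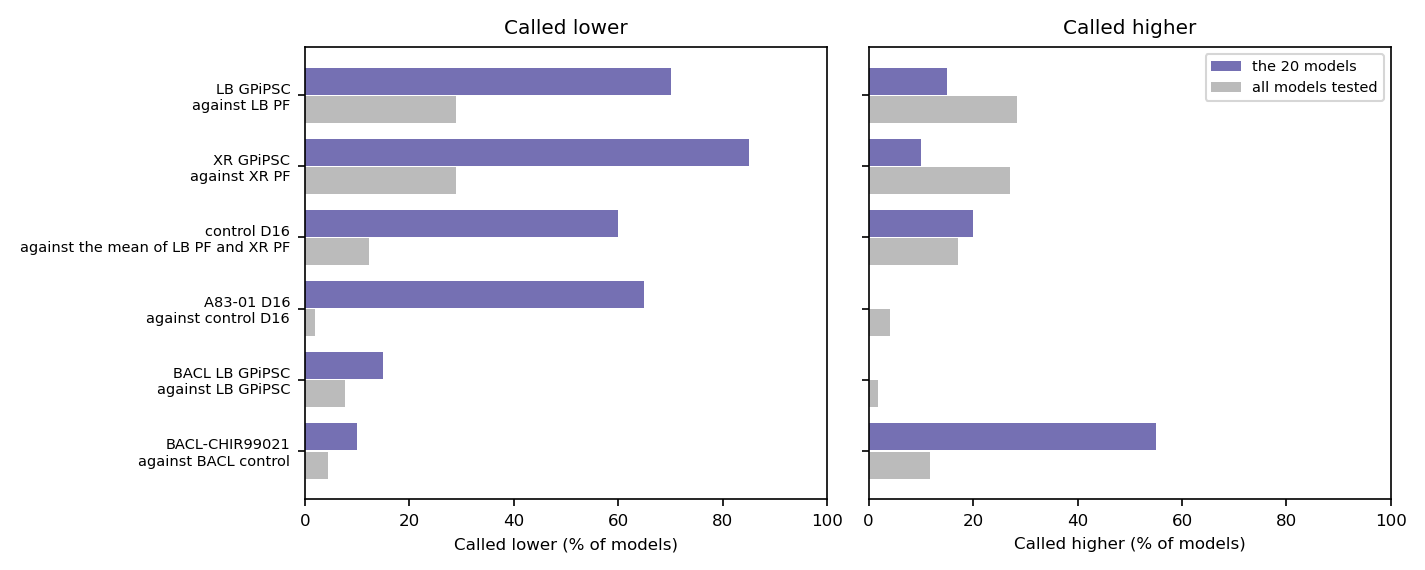
Share of the 20 gene models (purple) and of all 17225 models tested (grey) called lower (left) or higher (right) in each comparison that uses no stage library, in percent of models at an adjusted p under 0.05. With A83-01 13 of the 20 were lower and 0 higher, and with CHIR99021 11 were higher and 2 lower.

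The members lie on 10 HIC_ASM scaffolds and 1 ORI scaffold. Scaffold HIC_ASM_15 holds 4 of the 20, where it holds 6.33% of the 6194 models at 10 CPM or more in the outer groups. HIC_ASM_7 and HIC_ASM_13 hold 3 each, where they hold 5.47% and 8.62% of these 6194. The longest run of neighbours is evm.model.HIC_ASM_15.101 and evm.model.HIC_ASM_15.102, which carry consecutive numbers, and evm.model.HIC_ASM_15.86 is 15 numbers from the nearer. The first had 178 and 158 CPM at stage I D8, 23.1 and 11.8 at stage I D24, 7.86 and 6.16 in control D16 and 0.550 and 0.155 in A83-01 D16. The other had 78 and 82.3 CPM, 5.56 and 6.52 CPM, 6.34 and 7.27 CPM and 0.471 and 0.155 CPM in the same order. Both were highest at stage I D8 and had 0 counts in every GPiPSC and BACL library. Their coding lengths of 462 and 834 bases differ. Whether they are parts of 1 gene is not given in the files. No 2 members share a length. The median coding length was 1635 bases in the 20 and 1308 in the models at 10 CPM or more in the outer groups, with evm.model.HIC_ASM_15.101 the shortest and evm.model.HIC_ASM_15.86 the longest at 3978 bases.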

How the data were processed

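The 25 libraries were prepared from total RNA, per the labels' protocols. Estimated counts and TPM per gene model were made by the authors with kallisto, per the submitters' processing notes. No version, index or build is named: each is not given in the sources used here. The deposited estimated counts were divided by the library total for the CPM printed here. For edgeR they were rounded to the nearest whole number. Levels in deposited TPM served to compare models and for alternatives.

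The members and every list and comparison were chosen with earlier results of these data known. All 25 libraries in 12 groups entered 1 edgeR 4.0.16 fit (R 4.3.3) with 13 residual degrees of freedom, TMM scaling and robust quasi-likelihood F tests, after filterByExpr kept 17225 models. Calls are at a Benjamini-Hochberg adjusted p under 0.05 over these. The SE of a log2 fold change comes from the F statistic. Simulated counts with known changes tested the script. Alternatives were RLE, DESeq2 1.42.0, a replicate block, fits without the filter or restricted to the libraries compared, limma 3.58.1 trend tests on log2(TPM + 1) and log2(TPM + 0.1), each library left out, and other forms of the rule. Printed models are the 2 with the deepest dips, the 2 highest, the 2 called in each direction of a comparison with the largest changes, non-overlapping libraries, at least 10 counts on the lower side and 10 CPM on the other, those next to the limit and neighbours. The other members were named after their values were seen. A floor of 3 counts is 0.201 to 0.348 CPM per library, for counting error only. How reads were split among near-identical models is unknown. Model lengths are given as coding lengths because 91.6% divide by 3.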

Additional observations from a re-analysis of the deposited data

Results flagged for a closer look

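The change from PF to GPiPSC differed between LB and XR in 6 of the 20 models by a test of the difference itself, added after the data were seen, and in each the fitted log2 change was higher in LB. Over all models tested 5.56% were called in this direction. The test could not call evm.model.HIC_ASM_15.86, evm.model.HIC_ASM_15.101 and evm.model.HIC_ASM_15.102, with 0 counts in both the LB and the XR GPiPSC groups. A fit restricted to the 9 LB and XR libraries called 1 of the 20. The model evm.model.HIC_ASM_5.1118 had PF and GPiPSC means of 119 and 172 CPM in LB and of 568 and 112 CPM in XR (edgeR adjusted p = 0.000446). For evm.model.HIC_ASM_15.748 these means were 3.03 and 5.35 against 31.3 and 3.72 CPM (edgeR adjusted p = 0.00274). For evm.model.HIC_ASM_0.793 they were 0.412 and 0.114 against 97.8 and 0 CPM (edgeR adjusted p = 0.00795). Its summed counts were 8 in LB PF, 4 in LB GPiPSC and 0 in XR GPiPSC, so this difference rests on groups at or near 0. For evm.model.HIC_ASM_13.1948 the means were 75.2 and 20.2 against 97.6 and 3.49 CPM (edgeR adjusted p = 0.0123). The last 2 were evm.model.HIC_ASM_4.615, at 39.8 and 0.713 against 1324 and 1.33 CPM (edgeR adjusted p = 0.0279), and evm.model.ORI_1550.3, at 1.59 and 11.2 against 5.10 and 4.92 CPM (edgeR adjusted p = 0.0310). LB PF replicates differed widely, with 70.0 and 9.62 CPM for evm.model.HIC_ASM_4.615, and XR PF was the higher fibroblast group in all 6.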

How the results depend on the processing

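The number of models that met the rule was 36 on TMM-scaled CPM, 35 on RLE-scaled CPM, 17 on TPM (13 shared with the 20), 7 with a limit of an eighth, 15 at 20 CPM or more and 14 with the limit in every library. Leaving out 1 stage library gave 18 to 31. For the shifts that follow the cause was not tested. With 1 library left out, calls ran from 8 to 16 for control D16 against PF, from 6 to 11 for A83-01, from 1 to 5 for BACL LB GPiPSC, from 11 to 12 for CHIR99021, from 15 to 18 for LB, at 19 for XR and from 3 to 14 for the difference of the LB and XR changes. DESeq2 gave 6 calls for BACL LB GPiPSC and 11 for that difference, where limma-trend gave 15 on log2(TPM + 1) and 10 on log2(TPM + 0.1), and the fit of only the libraries compared gave 1. With the members chosen on TMM-scaled CPM, 19 of 36 fell and 0 rose with A83-01 and 19 rose and 2 fell (21 in all) with CHIR99021. With the limit in every library, 9 of 14 fell and 0 rose with A83-01 and 8 rose and 0 fell with CHIR99021. Chosen without stage I D24 replicate 2, 16 of 31 fell and 0 rose with A83-01 and 18 rose and 3 fell (21 in all) with CHIR99021. These forms were added after the data were seen. Of the log2 fold changes of called members, none changed sign in any alternative. Same-numbered replicates correlated from -0.71 (XR PF with stage I D24) to 0.56 (stage I D8 with stage I D24) in their deviations. The median was -0.00423. In groups of 2 the sign depends on which library is numbered 1. Replicate differences thus ran along a shared direction in some pairs of groups, and the cause was not tested. A replicate block gave 17, 19, 16, 13, 3 and 14 calls in the 6 comparisons, in the order LB, XR, control D16, A83-01, BACL LB GPiPSC and CHIR99021, where the fit without it gave 17, 19, 16, 13, 3 and 13. Groups of 2 libraries limit precision.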
